A study of Mus musculus with 24 samples.

Results

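The genes described here encode the machinery that releases neurotransmitter from synaptic vesicles, measured in mouse hippocampus at 3 ages in both sexes. The members are all array probes whose annotated symbol begins with Syt, Stx, Vamp, Cplx, Sv2, Rab3 or Unc13, together with Syn1 to Syn3, Snap25, Snap29, Snap47, Snap91, Syp and Nsf. They are 118 of the 25697 probes, for 84 of 16593 named genes. A probe was kept where every mouse of some group had an intensity over 16, which left 72 member probes (61%) for 57 genes, against 11901 (46.3%) of all probes. The prefixes also take relatives with other roles, namely 10 kept probes for Rab31 to Rab39b, 3 for Rab3 regulators, 4 for syntaxin-binding proteins and 1 for a synaptotagmin-like protein. The other 46 probes did not pass, and 27 genes had no kept probe, among them Cplx3, Cplx4, Syn3, Rab3c, Vamp5, Unc13d, Sytl1 and 7 synaptotagmins (Syt2, Syt6, Syt7, Syt8, Syt10, Syt14 and Syt15).

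Total RNA from the hippocampus, dissected with CA1, CA2, CA3 and dentate gyrus, was hybridized to Illumina Mouse Ref8 arrays, 1 array per mouse and 4 mice in each of 6 groups. The mice were C57BL6, substrain NCr, without genetic or drug intervention. Females at 3, 12 and 24 months of age are named FY, FA and FO (young, adult, old), and males of these ages MY, MA and MO. All females were killed in diestrus, and the old ones were in reproductive senescence. For this staging the females had daily vaginal lavage over several weeks, whereas the males were killed after a shorter acclimation. Handling therefore cannot be told apart from sex in any comparison of females with males. The design asks how age and sex change hippocampal expression.

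Transmitter leaves a nerve terminal when a vesicle fuses with the plasma membrane. The vesicle protein synaptobrevin (Vamp) zips together with syntaxin and SNAP-25 on the plasma membrane, Munc13 proteins prepare this complex, complexins hold it ready, and calcium binding to a synaptotagmin triggers fusion. Synapsins and Rab3 proteins govern the supply of vesicles, and the ATPase NSF takes the spent complexes apart so that their parts can be used again. In the hippocampus this cycle serves the excitatory and inhibitory synapses on which learning depends.

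Values are signal intensities on a linear scale with the background already subtracted, and an intensity under 16 was set to 16 before its log2 was taken. A difference is called where limma, fitted over all 6 groups, gave a Benjamini-Hochberg adjusted p under 0.05 over the 11901 kept probes. Some arrays stood apart before any comparison. MO3, which is old male 3, had a neocortex marker level of 0.97, against -0.23 to 0.23 in the other 23 arrays. This level is the mean of 6 of 8 listed genes (log2, centred over arrays). Mef2c stood at 2261 in MO3, against 425 to 903. Rorb at 45 (30.1 to 46.8) and Fezf2 at 398 (212 to 478) lay within the range of the other arrays. The dentate granule level of MO3 was -1.42, against -0.62 to 0.47 elsewhere, and C1ql2, a dentate granule marker, stood at 494 against 1347 to 2816. MO3 was also the lowest array on the CA1 level (-0.73) and the CA3 level (-0.51), and the highest on the interneuron level (0.42). Not every gene of the lists stood apart. On the CA1 list Fibcd1 stood at 216, against 1376 to 2416. Wfs1, Pou3f1, Mpped1 and the dim Man1a lay within the range of the other arrays. On the CA3 list Grik4 and Cpne4 were lowest in MO3, and Bok and Spock1 lay within the range. On the interneuron list Pvalb, Vip and Slc32a1 were highest in MO3. Gad1, Cck, Sst and Npy, and Trpc6 of the dentate list, lay within the range. FY3, FO3 and MO1 shared a pattern in Syn1 and Vamp2 that is described with those genes. The choroid plexus level (4 of 6 listed genes) ran from -2.33 in MO3 to 2.92 in FA1 and was above 0 in 10 arrays.

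Promoter windows are shown for 3 members on which the description turns: Syt11, the only member with a called difference, Syn1, whose probes split between arrays, and Vamp8, which varied with choroid plexus markers. They run 5′ to 3′ on the strand of the gene in build GRCm38.p6, from RefSeq, with 250 bases before and 50 after the annotated start. The Syt11 window lies at chr3:88772550-88772849, the Syn1 window at chrX:20920869-20921168 and the Vamp8 window at chr6:72390618-72390917, all on the minus strand. Capitals mark matches, on either strand, to GGGCGG (GC box), TGACGTCA (the cyclic AMP response element), GCATGCGC (an NRF1-type sequence), TTCAGCACC (the first letters of the RE1 silencer element) and TATAAA.
Syt11: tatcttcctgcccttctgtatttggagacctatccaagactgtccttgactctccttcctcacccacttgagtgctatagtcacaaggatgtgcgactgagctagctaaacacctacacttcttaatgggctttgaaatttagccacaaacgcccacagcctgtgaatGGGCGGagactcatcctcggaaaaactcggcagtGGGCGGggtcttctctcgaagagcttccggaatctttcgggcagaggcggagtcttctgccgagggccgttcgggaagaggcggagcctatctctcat
Syn1: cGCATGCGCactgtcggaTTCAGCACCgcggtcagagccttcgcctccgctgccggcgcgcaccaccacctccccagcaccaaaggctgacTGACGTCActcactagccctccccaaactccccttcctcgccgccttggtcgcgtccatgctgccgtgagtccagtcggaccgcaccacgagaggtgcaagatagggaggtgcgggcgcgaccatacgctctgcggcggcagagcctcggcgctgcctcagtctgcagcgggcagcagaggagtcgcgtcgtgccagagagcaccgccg
Vamp8: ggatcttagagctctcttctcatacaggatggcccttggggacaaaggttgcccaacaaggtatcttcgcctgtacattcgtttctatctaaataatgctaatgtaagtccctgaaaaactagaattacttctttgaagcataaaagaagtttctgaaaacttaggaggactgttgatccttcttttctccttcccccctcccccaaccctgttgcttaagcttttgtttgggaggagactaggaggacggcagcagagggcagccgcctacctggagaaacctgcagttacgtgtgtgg
The Syt11 window held 2 GC boxes, at 82 and 48 bases before the start, and 14 CpG. The Syn1 window held 33 CpG with 1 match each to the cyclic AMP, NRF1 and RE1 letters, which do not overlap, and the Vamp8 window held 5 CpG and none of these matches. Of the 57 genes with a kept probe, 47 matched the table, with 61 windows, of which 39 (63.9%) held a GC box, against 35.7% of all 32851 windows. The RE1 letters were found in 0.371% of all windows and, among the members, in Syn1 alone. The cyclic AMP letters were found in 1.79%, the NRF1 letters in 2.71% and TATAAA in 13.6% of all windows, against 1.64%, 8.2% and 8.2% of the members' windows. The members' windows had a median of 60% GC and 18 CpG, against 52.7% and 7 over all windows. All windows include genes that were not kept here, so these shares are not read as particular to the members. A match describes the letters and is not evidence of a bound factor.

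Differences with age centred near 0 over the members. In FO against FY, 0 of the 72 probes was called, where 0.714% of all kept probes was, and the median log2 difference was 0.03, against -0.00 over all kept probes. At an unadjusted p under 0.05 there were 4 members (5.56%), against 6.65% of all kept probes. In MO against MY, 0 members was called (background 0.101%) with a median of 0.03, against -0.03 over all kept probes, and 9 members (12.5%) had an unadjusted p under 0.05, against 11.4%. In bulk tissue, fewer cells of a type and less RNA per cell cannot be told apart.

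The other age comparisons had no called member either. FO against FA had 0 called members (background 0.361%) and 3 at the unadjusted threshold (4.17% against 5.27%), FA against FY had 0 called (background 0%) and 5 (6.94% against 11%), MO against MA had 0 called (background 0%) and 2 (2.78% against 5.5%), and MA against MY had 0 called (background 0%) and 0 at the unadjusted threshold (background 2.07%). The difference of the young-to-old change between the sexes had 0 called members (background 0%) and 1 (1.39% against 5.87%), and that of the young-to-adult change had 0 called (background 0%) and 5 (6.94% against 9.39%). The lowest limma adjusted p over the members was 0.295 in MO against MY and 0.691 in FO against FY. Across 9 pairs of groups, between 52 and 61 of the 72 probes had a 95% interval that lay within 0.5 (log2) of 0, so a change of that size was outside the interval for most members, while a median distance of 0.25 from the estimate to either bound leaves smaller changes undecided.

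Syt1, the calcium sensor of fast release, had intensities of 4399, 3800, 3484 and 3733 in FY, 3750, 4023, 4330 and 3860 in FA, and 3952, 4023, 4422 and 3907 in FO. In males it had 3452, 3850, 3798 and 3784 in MY, 3953, 3894, 4350 and 3557 in MA, and 3938, 4294, 4924 and 4127 in MO. All 4 MO values lay above all 4 MY values, whereas FO and FY overlapped. The log2 difference was 0.21 ± 0.08 (SE) in MO against MY (limma adjusted p = 0.295) and 0.08, with a 95% interval of -0.08 to 0.25, in FO against FY. Without MO3 the difference of MO against MY was 0.15 (limma unadjusted p = 0.0725).

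Syp encodes synaptophysin, a glycoprotein of the vesicle membrane and a common marker of terminals. It had 6880, 7442, 7821 and 7838 in FO, against 7460, 7073, 7519 and 6794 in FY, and 9907, 8125, 7174 and 6811 in MO, against 7145, 7304, 7017 and 7293 in MY. MO1 held the highest value of all arrays and the other groups lay between 6754 and 7838. Its log2 difference was 0.05 (95% interval -0.12 to 0.23) in FO against FY and 0.14 (-0.03 to 0.31) in MO against MY.

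Complexins clamp and then assist the fusion complex. Cplx1 had 6119, 6454, 6354 and 6577 in FO, against 6109, 6161, 5099 and 6326 in FY. In males it had 5527, 6733, 8901 and 6661 in MO, against 6453, 6010, 5951 and 6174 in MY, so that the MO group held both the highest array, MO3, and a low one, MO1. Cplx2 ran the other way in MO3, at 593 there and at 952, 969 and 652 in the other MO mice, against 816, 950, 939 and 1152 in MY. Its log2 difference was -0.31 ± 0.14 (SE) in MO against MY (limma adjusted p = 0.412) and 0.12 (95% interval -0.18 to 0.41) in FO against FY, and the test of the difference between these changes gave 0.43 ± 0.20 (limma adjusted p = 0.843). Without MO3 the difference of MO against MY was -0.18 (limma adjusted p = 0.754).

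Nsf, the ATPase that recycles the complexes, ranged from 5439 to 7136 over all 24 arrays, with means of 6077 ± 272 in FO and 6329 ± 198 in FY (SD, n = 4 each) and a log2 difference of -0.06 (95% interval -0.20 to 0.08). The plasma membrane partner Stx1a ranged from 939 to 1443 in 23 arrays and reached 2054 in MO3. Snap25, the third member of the core complex, has 1 probe on the array and this lay at or below 2.65 in every array, so it gives no level. The active zone priming genes Unc13b and Unc13c were kept, at 482 to 727 and 18.7 to 70.7. Unc13c, the form best known from cerebellum, had log2 differences of 0.33 (95% interval -0.33 to 1.00) in FO against FY and 0.45 (-0.21 to 1.11) in MO against MY.

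Taking the 20 core genes named for the main comparisons, with 26 kept probes, 22 had intervals within 0.5 (log2) of 0 in FO against FY and 20 in MO against MY. The differences ran from -0.40 to 0.33 in FO against FY and from -0.33 to 0.45 in MO against MY. The vesicle SNAREs Vamp1 and Vamp2, the transporter-like Sv2a and Sv2b, of which Sv2a is the binding site of the drug levetiracetam, and the GTPases Rab3a, Rab3b and Rab3d were among them, and none was called. Rab3a, the main Rab3 of brain, had 2742, 2858, 3054 and 2910 in FO, against 2997, 2873, 2824 and 2632 in FY, and 2829, 2846, 3158 and 3224 in MO, against 2992, 2966, 2727 and 3202 in MY. Its groups overlapped, with log2 differences of 0.03 (95% interval -0.12 to 0.18) and 0.02 (-0.13 to 0.17). Rab3d had a log2 difference of -0.29 ± 0.13 (SE) in MO against MY (limma adjusted p = 0.385) and 0.06 in FO against FY.

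The other members at an unadjusted p under 0.05 in an old against young comparison were spread over the families. In FO against FY they were Rab32 at 0.33, Stx8 on ILMN_3064056, an endosomal syntaxin, at 0.30, Syt12, a synaptotagmin that does not bind calcium, at 0.26 and Rab36 at -0.24. Syt12 had 108, 108, 96.5 and 102 in FO, against 76.8, 92.2, 90.4 and 87.4 in FY, without overlap (limma adjusted p = 0.741). In MO against MY, besides Syt1, Cplx2 and Rab3d, they were Syn1 on ILMN_1235133 at 0.23, Sytl2 at 0.46, Syt9, a calcium sensor of fast release in some neurons, at -0.49, Rab3ip, a Rab exchange factor, at -0.29, Stxbp4 on ILMN_2788475 at -0.29 and Stx18, a syntaxin of the endoplasmic reticulum, at -0.22. Their limma adjusted p-values were all 0.353 or above. Single arrays set the size of some: without MO3 the difference was -0.14 for Rab3ip and -0.15 for Stx18, and without MO1 it was -0.16 for Stxbp4.

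**Figure D1:**
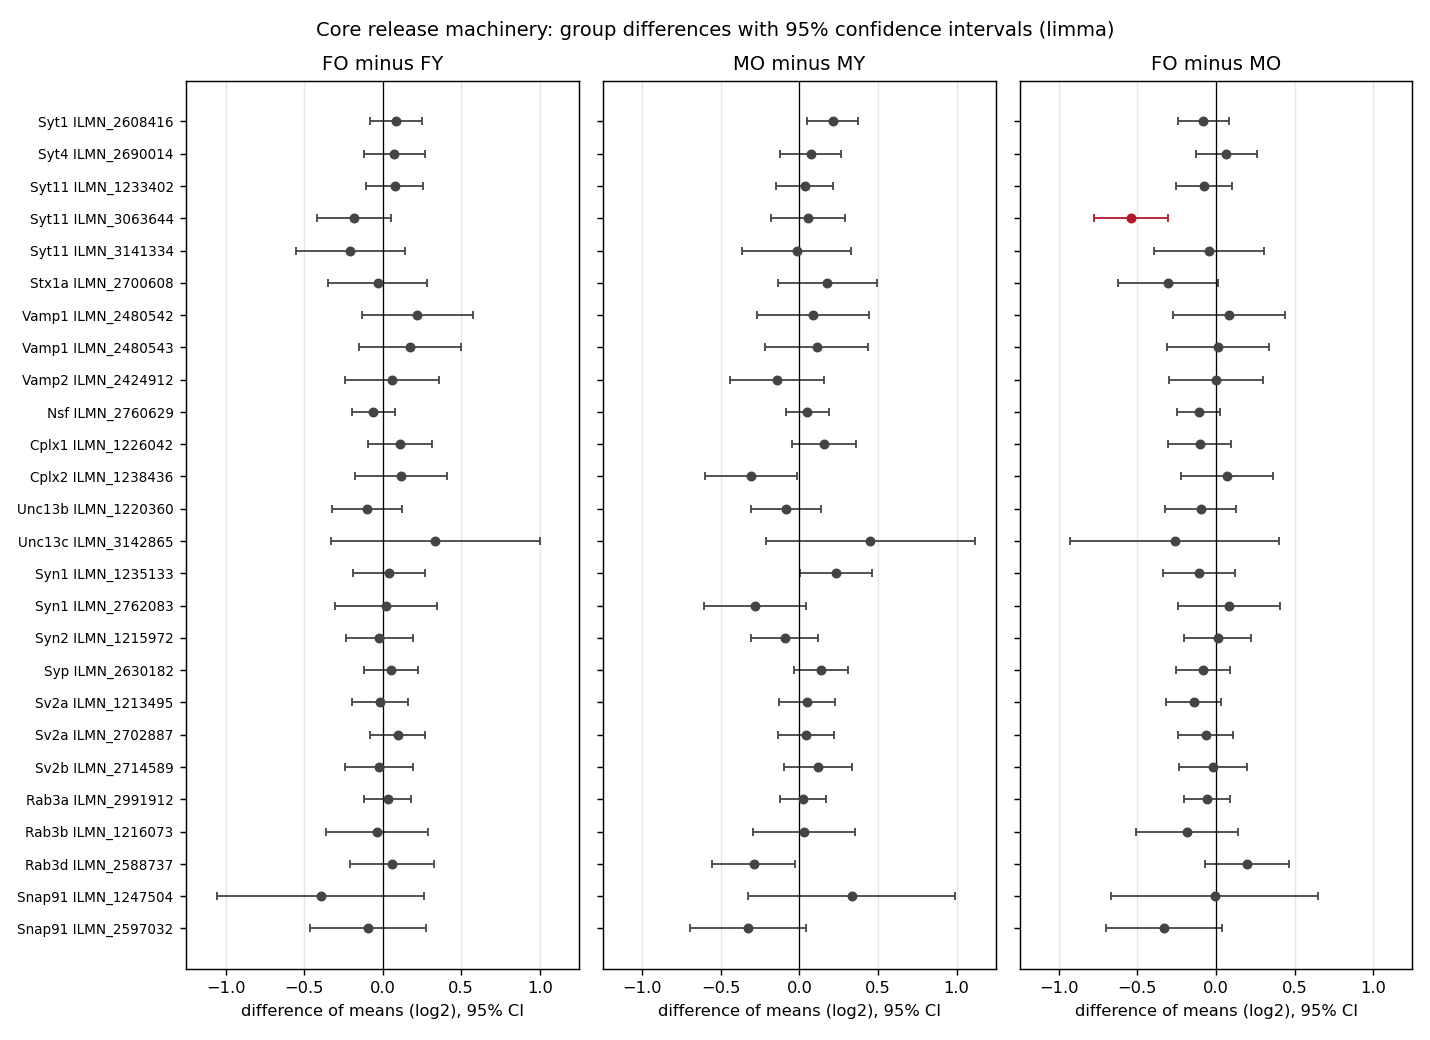
Differences of group means (log2, horizontal axis, points) with 95% confidence intervals from limma (bars) for the 26 core probes (rows), in FO minus FY, MO minus MY and FO minus MO. Red marks the called probe, Syt11 ILMN_3063644 at -0.54 in FO minus MO, and all other intervals are grey.

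Syt11 was the member with a called difference, and it lay between the sexes. Syt11 is a synaptotagmin that does not bind calcium and is known from neurons as a brake on vesicle retrieval. Probe ILMN_3063644 had 148, 182, 213 and 166 in FY, 168, 161, 205 and 149 in FA, and 140, 165, 180 and 138 in FO. In males it had 217, 215, 218 and 219 in MY, 202, 244, 207 and 201 in MA, and 214, 210, 245 and 234 in MO. The female values were all lower than the male ones at 3 and 24 months, and at 12 months FA3 at 205 overlapped the 2 lowest males.

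The group means of this probe were 156 ± 20.3 in FO and 226 ± 16.6 in MO (SD, n = 4 each), a log2 difference of -0.54 ± 0.11 (SE) with a 95% interval of -0.78 to -0.31 (limma adjusted p = 0.048). It was the only one of 72 members called in FO against MO, where 0.176% of all kept probes was called. The differences were -0.33 ± 0.11 in FA against MA (limma adjusted p = 0.753) and -0.31 ± 0.11 in FY against MY (limma adjusted p = 0.716), each with 0 called members, against 0.0504% and 0.0336% of all kept probes. The change with age was -0.18 (95% interval -0.42 to 0.05) in FO against FY and 0.05 (-0.18 to 0.29) in MO against MY, and the test of the difference between them gave -0.24 ± 0.16 (limma adjusted p = 0.851), so a larger sex difference in old mice was not shown.

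The call in old mice was near the threshold and was lost when most single arrays were left out. Leaving out any of FO1, FO2, FO4, MO1, MO2, MO3 or MO4 in turn gave limma adjusted p-values between 0.0602 and 0.272. Only without FO3 did the call hold. The log2 difference itself stayed between -0.61 and -0.49 in these fits, each with 1 mouse fewer. A comparison of females with males averaged over the 3 ages, added after these values were seen, gave -0.39 ± 0.07 (SE) for this probe, with a 95% interval of -0.53 to -0.26 (limma adjusted p = 0.00655), and 0.336% of all kept probes was called. There it was again the only called member, it stayed called when any 1 of the 24 arrays was left out (limma adjusted p at most 0.0197), and it stayed called without FY3, FO3 and MO1 (0.00054). The same arrays enter both comparisons, so the second is no independent support for the first.

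On the other Syt11 probes the sexes overlapped. ILMN_3141334 averaged 103 ± 32.1 in FO and 104 ± 14.3 in MO, with a log2 difference of -0.04 (95% interval -0.39 to 0.30), and ILMN_1233402 averaged 7517 ± 661 in FO and 7942 ± 919 in MO (SD, n = 4 each), with -0.08 (-0.26 to 0.10). Within groups, over 24 arrays, the called probe ILMN_3063644 had r = -0.468 with ILMN_1233402 and 0.51 with ILMN_3141334, and the 2 uncalled probes had -0.752. Which transcript form each Syt11 or Syn1 probe reads was not determined here. With 1 probe per gene, the probe with the highest mean, Syt11 is not called. The neuron marker level (4 of 7 genes kept, without Tubb3, Nefl and Snap25) was -0.01 to 0.10 in FO and -0.15 to 0.13 in MO, but 0.01 to 0.09 in FY and -0.12 to -0.01 in MY, without overlap. Of its 4 kept genes, Syt1 is itself a member. The astrocyte level (6 of 6 genes) was 0.14 to 0.37 in FO and -0.24 to 0.28 in MO, and the microglia level (5 of 6 genes) 0.18 to 0.56 in FO and -0.10 to 0.33 in MO. Their part in the Syt11 difference was not tested.

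**Figure D2:**
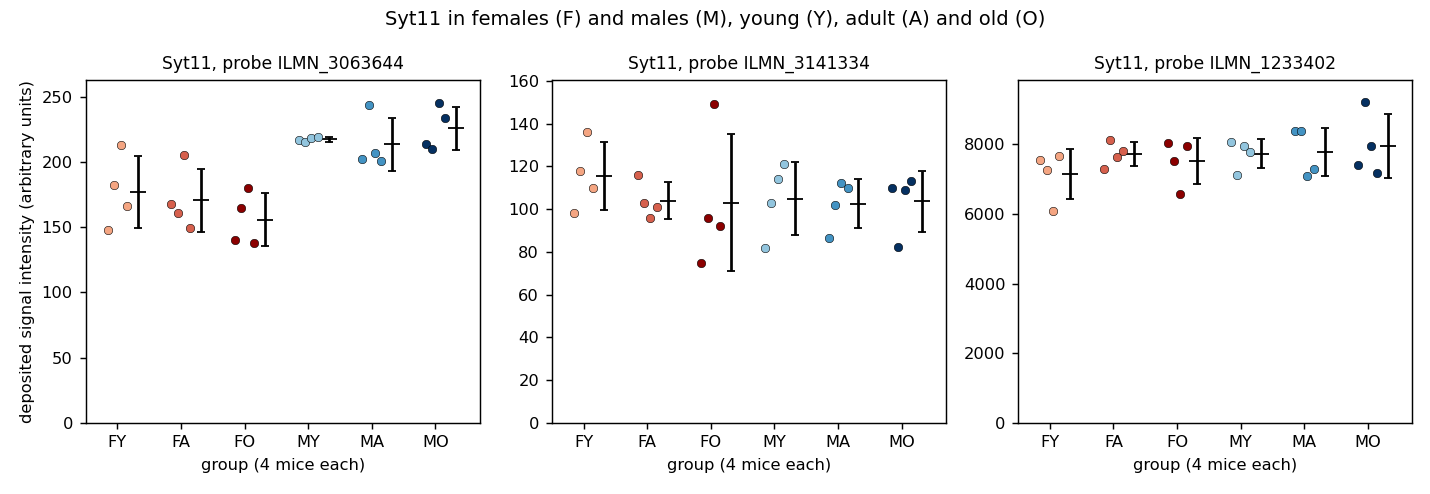
Deposited signal intensity (linear vertical axis) of the 3 Syt11 probes in each mouse (points), with the mean and SD of each group of 4 (bar), for females FY, FA and FO and males MY, MA and MO. On ILMN_3063644 the females lie at 138 to 213 and the males at 201 to 245, while on the other probes the sexes overlap.

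Other sex differences stayed below the limma threshold. At an unadjusted p under 0.05 there were 4 members in FO against MO (5.56%, against 9.68% of all kept probes), 3 in FA against MA (4.17% against 6.55%), 5 in FY against MY (6.94% against 6.97%) and 8 in the comparison averaged over ages (11.1% against 10.3%). Rab32, a GTPase of lysosome-related organelles taken by the Rab3 prefix, had 84.7, 70.1, 77.1 and 79.7 in FO, against 66.7, 55.6, 38.3 and 56 in MO. All FO values were also above the FY values of 61.5, 66.7, 64.5 and 55.2, and above those of FA, which lay between 51.2 and 65.7. The log2 differences were 0.55 ± 0.14 (SE) in FO against MO (limma adjusted p = 0.154) and 0.33 ± 0.14 in FO against FY (limma adjusted p = 0.691). The microglia marker level was also higher in all 4 FO mice, at 0.18 to 0.56, than in FY, at -0.27 to -0.03, and its part in the Rab32 values was not tested.

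Vamp7, a SNARE of late endosomes, had 397, 397, 452 and 383 in FY, against 360, 336, 305 and 296 in MY, without overlap. The log2 difference of 0.33 ± 0.11 (SE) was not called (limma adjusted p = 0.716), and in FO against MO it was 0.22 (95% interval -0.00 to 0.45). Cplx2 had 674, 677, 892 and 770 in FY, against 816, 950, 939 and 1152 in MY, with 1 FY value among the MY values and a log2 difference of -0.36 ± 0.14 (limma adjusted p = 0.716). Stxbp4, a syntaxin-binding protein, had log2 differences of 0.31 ± 0.12 in FO against MO on ILMN_2788475 (limma adjusted p = 0.397) and 0.27 ± 0.12 in FA against MA (limma adjusted p = 0.753).

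Snap91, which encodes the clathrin assembly protein AP180 that retrieves vesicles, had 2 kept probes that ran in opposite directions in FY against MY. ILMN_1247504 had 143, 159, 310 and 133 in FY, against 152, 125, 82.8 and 80.9 in MY, whereas ILMN_2597032 had 32.6, 30, 48.4 and 43.8 in FY, against 56, 48.9, 68.9 and 52.8 in MY. On the first probe FY3 was far above the rest and the groups overlapped, and on the second all FY values were below all MY values. The log2 differences were 0.72 ± 0.32 (SE) and -0.57 ± 0.18 (limma adjusted p = 0.716 for each), and without FY3 they were 0.44 and -0.68. In FA against MA both probes were lower in females, by -0.48 and -0.25, and in FO against MO by -0.33 and -0.01. Which of them follows the gene's full transcript cannot be said from the annotation used here.

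In adult against young females, 3 of the 5 members with the lowest p-values were read by dim probes. In FA against FY, 5 members had an unadjusted p under 0.05 and all were lower, 6.94% of the members against 8.39% of all kept probes that were lower at that threshold. Syt17, a synaptotagmin of the early secretory pathway, had 14.8, 20.8, 18.6 and 18.3 in FA, against 40.3, 35.6, 42.9 and 21.1 in FY, close to the floor of 16. Its log2 difference was -0.88 ± 0.30 (limma adjusted p = 0.331), and that of Rab34 on ILMN_2633777, a second dim probe, was -0.93 ± 0.23 (limma adjusted p = 0.32). With a floor of 32 these became -0.23 for Syt17 and -0.15 for Rab34, and the other Rab34 probes had -0.19 and -0.04. Rab3il1, a Rab exchange factor, had -0.51 ± 0.17, but its probe was kept only through FY, the group in which it was highest, and all 4 FA values were at the floor, so nothing is read from it. With a floor of 32 its difference was 0. Stx6, a SNARE of the trans-Golgi network, was far from the floor, at 197, 194, 177 and 209 in FA, against 198, 276, 265 and 227 in FY. Only FY1 lay within the FA range, and the difference was -0.30 ± 0.12 (limma adjusted p = 0.353). Snap91 on ILMN_1247504, away from the floor, had 101, 127, 86.5 and 104 in FA, all below the FY values, with a difference of -0.75 ± 0.32 (limma adjusted p = 0.392) that was -0.48 without FY3.

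Both Syn1 probes and Vamp2 set the same 3 arrays apart. Syn1 encodes synapsin I, the phosphoprotein that ties vesicles to the cytoskeleton, and Vamp2 the main vesicle SNARE of forebrain terminals. On ILMN_2762083, Syn1 had 1855, 1908, 1317 and 1675 in FY, 1917, 1947, 1276 and 1732 in FO, and 1042, 1880, 1755 and 1900 in MO. On ILMN_1235133 it had 4097, 4047, 5257 and 3933 in FY, 4086, 4124, 5407 and 4212 in FO, and 6105, 4464, 4507 and 4244 in MO. FY3, FO3 and MO1 were thus lowest in their groups on the first probe and highest on the second, and the within-group correlation of the 2 probes was r = -0.778 over 24 arrays.

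Set against the mean of the other 3 mice of the group, ILMN_2762083 deviated by -0.46 in FY3, -0.55 in FO3 and -0.82 in MO1 (log2), and ILMN_1235133 by 0.39, 0.39 and 0.47. Vamp2 stood at 1824 in FY3, 2135 in FO3 and 1651 in MO1, against 2490 to 3094 in the other 21 arrays, with deviations of -0.55, -0.33 and -0.82. Vamp4, a SNARE of the Golgi and endosomes, deviated by -0.32, -0.30 and -0.37, and Syt3, a calcium-binding synaptotagmin, by 0.41, 0.43 and 1.00. Of the 72 members, 6 (8.33%) were more than 0.2 below in all 3 arrays and 2 (2.78%) more than 0.2 above, against 6.9% and 8.44% of all kept probes. The other members below were Unc13b, Rab31 and Stxbp4 on ILMN_2788475. The cause was not tested.

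FY3, FO3 and MO1 were set apart by these same Syn1 probes, so smaller Syn1 differences in old males without them follow from that choice. Syn1 on ILMN_2762083 differed by -0.28 in MO against MY with all arrays and by -0.08 without the 3, and on ILMN_1235133 by 0.23 and 0.11. The count of members at an unadjusted p under 0.05 in MO against MY was then 13 (18.1%, against 16.9% of all kept probes), and 0 were called.

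**Figure D3:**
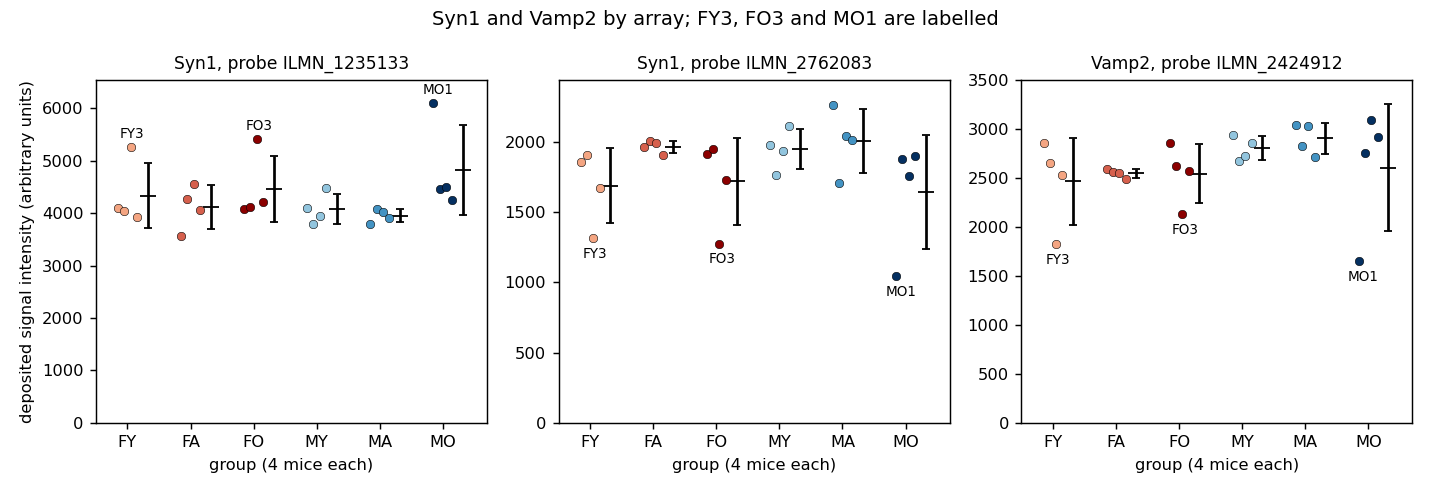
Deposited signal intensity (linear vertical axis) of 2 Syn1 probes and Vamp2 in each mouse (points), with the mean and SD of each group of 4 (bar). FY3, FO3 and MO1, labelled, are high on Syn1 ILMN_1235133 and low on Syn1 ILMN_2762083 and Vamp2.

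Old males were the most variable group, among the members and over the whole array. The median SD between mice (log2) over the 72 members was 0.22 in MO and 0.11 in MY, and 0.14 in FO and 0.16 in FY. The SD was largest in MO for 31 members (43.1%), against 44.9% of all kept probes. In MO1, 4 members lay more than 0.5 (log2) above the mean of its group mates and 11 more than 0.5 below, which is 20.8% of the members, against 23.4% of all kept probes. In MO3, 10 lay above and 4 below, which is 19.4%, against 18.1%. In the other 22 arrays this share was at most 9.72% of the members and at most 14.7% of all kept probes. That highest share over all kept probes was in FY3, followed by 13% in MA3 and 11.9% in FO3.

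In MO3, the array with the high neocortex marker level, Sytl2, a Rab27-binding protein of secretory vesicles, stood at 1416. It had 462, 670 and 624 in the other MO mice and 400 to 710 in all other groups. Stx1a was 0.87 and Cplx1 0.50 (log2) above the mean of the other MO mice, and the fast-synapse SNARE Vamp1 0.81 and 0.74 on its 2 probes. Stxbp2, the Munc18-2 protein, was at 849 against 336 to 547 in the other arrays, and Unc13c at 70.7, which was the highest of all arrays. Cplx2 was 0.51 and Rab32 0.63 below. The part of the neocortex markers in these values was not tested. Sytl2 had a log2 difference of 0.46 ± 0.20 (SE) in MO against MY (limma adjusted p = 0.392) and 0.14 ± 0.13 without MO3 (limma adjusted p = 0.807), and Stx1a had 0.18 and -0.04. Without MO3, the members at an unadjusted p under 0.05 in MO against MY numbered 4 (5.56%, against 8.32% of all kept probes), and with it 9 (12.5%, against 11.4%). In MO against MA they numbered 6 without MO3 (8.33%, against 5.08%) and 2 with it (2.78%, against 5.5%). In FO against MO they numbered 6 without MO3 (8.33%, against 8.39%) and 4 with it (5.56%, against 9.68%).

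**Figure D4:**
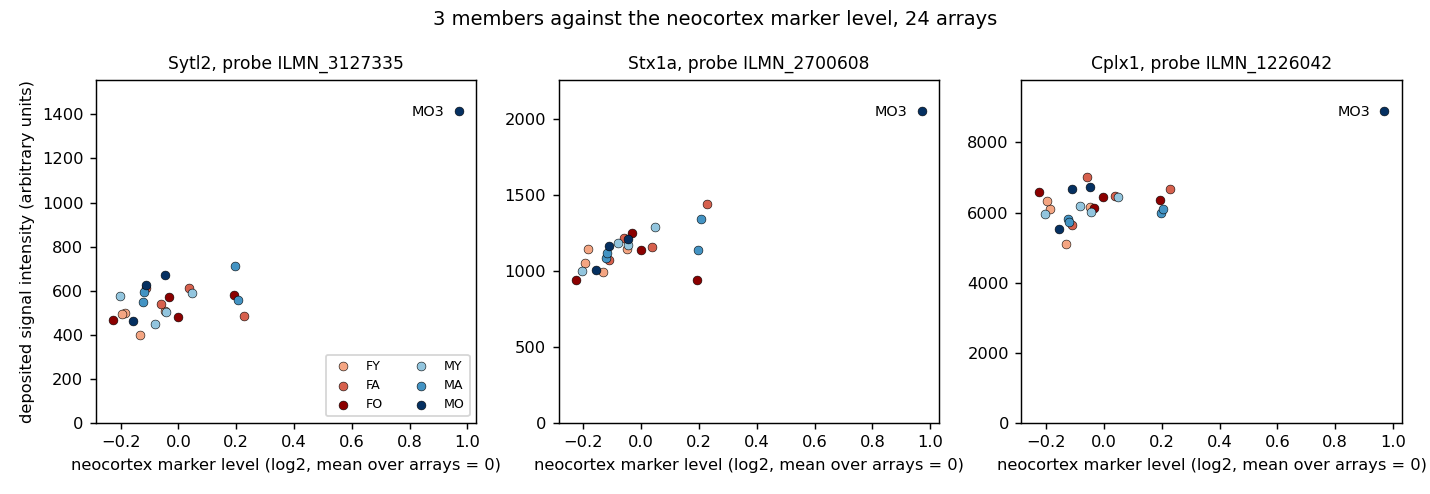
Deposited signal intensity of Sytl2, Stx1a and Cplx1 (linear vertical axes) against the neocortex marker level of the array (log2, mean 0), for 24 arrays coloured by group. MO3 lies apart at 0.97 with 1416, 2054 and 8901, and the other 23 arrays lie between -0.23 and 0.23.

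Vamp8, a SNARE of endosomes and of secretory epithelia rather than of synapses, varied widely within groups, with a pooled SD of 0.51 (log2) on ILMN_1219136, the highest of the members, and 0.48 on ILMN_2499400. On ILMN_2499400 it had 321, 156, 98.6 and 98.5 in FA, against 138, 95.1, 140 and 206 in FY, and the lowest value of all arrays was 81 in MO4. FA1, which had the highest choroid plexus level, was also highest for Vamp8 on both probes. The arrays fell apart into 10 with a choroid plexus level above 0 and 14 below it, so the relation was computed within each set. On ILMN_2499400, Pearson's r was 0.864 (permutation p = 0.00071) and Spearman's rho 0.903 (permutation p = 0.00091) over the 10, and 0.63 (permutation p = 0.0154) and 0.701 (permutation p = 0.00663) over the 14. Without the 2 arrays farthest from the median on the marker level, r was 0.905 and 0.834.

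On ILMN_1219136 Pearson's r was 0.692 (permutation p = 0.0283) and Spearman's rho 0.721 (permutation p = 0.0233) over the 10 arrays, but -0.0448 (permutation p = 0.878) and -0.116 (permutation p = 0.693) over the 14, and 0.801 and 0.243 without the 2 farthest arrays. Adjusted by Benjamini-Hochberg over these 4 relations, the p-values of Pearson's r were 0.00284, 0.0307, 0.0377 and 0.878, each from 100000 permutations, two-sided. These permutations exchange arrays between the 6 groups, so the relation was also computed on deviations from the group means over the 24 arrays, with mice permuted only within their group. This, chosen after seeing the data, gave r = 0.918 on ILMN_2499400 (permutation p = 1e-05, the smallest that 100000 permutations can give) and 0.648 on ILMN_1219136 (permutation p = 0.00491), or 2e-05 and 0.00491 adjusted by Benjamini-Hochberg over both. Without the 2 farthest arrays r was 0.945 and 0.518. The pairing of Vamp8 with this marker list and the split at 0 were taken from these same data. Neither adjustment covers that choice, so the p-values describe this pair only. The choroid plexus level ran from -1.02 to 0.39 in FO and from -1.11 to 2.37 in FY, and from -2.33 to 1.33 in MO and from -0.88 to 2.32 in MY. Vamp8 had no called difference in any comparison, with a log2 difference of -0.24 (95% interval -0.87 to 0.39) in FO against FY and -0.43 (-1.06 to 0.20) in MO against MY on ILMN_2499400.

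**Figure D5:**
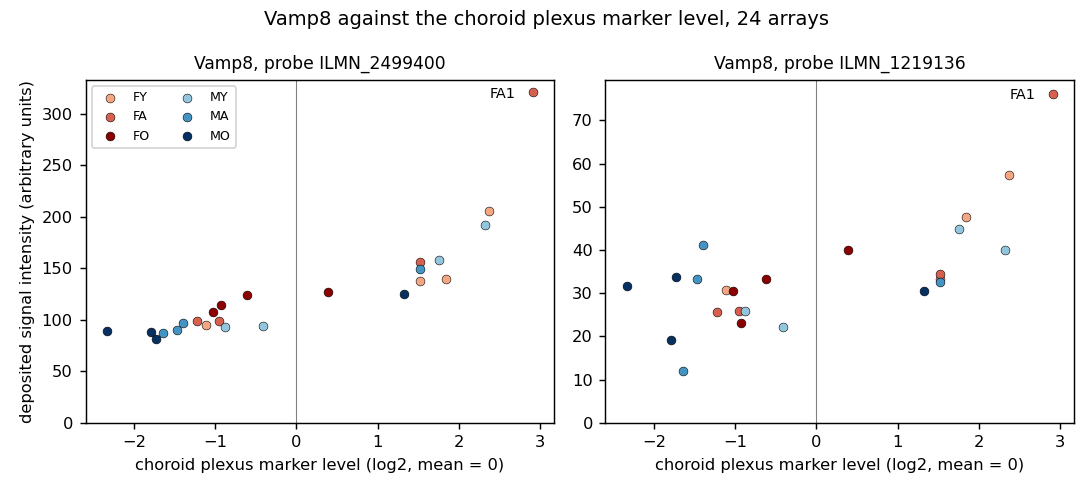
Deposited signal intensity of the 2 Vamp8 probes (linear vertical axes) against the choroid plexus marker level of the array (log2, mean 0), for 24 arrays coloured by group. FA1, labelled, is highest on both probes at 321 and 76.2, and the grey line marks the level of 0 that divides the 10 and 14 arrays.

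Different probes of a gene did not always vary together. Over the 11 genes with more than 1 kept probe there were 20 pairs of probes, and the within-group correlation over 24 arrays was below 0 in 10 pairs and above 0.5 in 4. The pairs above 0.5 were Vamp1 with r = 0.877, Sv2a with 0.789, Vamp8 with 0.758, and Syt11 with 0.51 for ILMN_3063644 and ILMN_3141334. The probes below 0 included those of Syn1, Snap91, Stx5a, a syntaxin of the Golgi, and Vamp3, a widely expressed endosomal SNARE. Some pairs below 0 were close to 0, such as -0.0113 for a pair of Stx8 probes and -0.0684 for a pair of Rab34 probes. The matching share over all genes with more than 1 kept probe was not computed, so nothing particular to the members is read from these counts. These values describe the probes, and how much of them comes from noise at low intensity was not tested.

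The wider pathway gave no call. Of the active zone list, 6 of 13 genes were measured, of priming and fusion cofactors 10 of 13, of vesicle membrane and loading genes 8 of 9, and of endocytosis and recycling genes 15 of 19. None of them was called in any of the 12 comparisons, and the lowest limma adjusted p was 0.363. In each comparison the median log2 difference of a list lay between -0.11 and 0.12.

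The two-way analysis of variance described in the study's methods was applied here to the floored log2 values of the kept probes. Newman-Keuls tests were made within a sex or within an age. The study itself filtered probes by detection calls and scaled its values to young males, so its own lists can differ. As applied here, with a fold change of at least 1.2 but no correction over genes, the test called a few members. In FO against FY it called 1 (Rab32, higher), against 2.79% of all kept probes, in FO against FA 2 (Rab32 and Rab34, higher; 1.94%) and in FA against FY 3 (Rab3il1, Rab34 and Stx6, lower; 2.78%), where Rab3il1 had been kept only through FY. It called 0 in MO against MY (3.13%), MO against MA (1.64%) and MA against MY (0.546%). Between the sexes it called 3 in FO against MO (Rab32 and Stxbp4 higher, Syt11 lower; 4.47%), 3 in FA against MA (Stxbp4 higher, Syt11 and Rab34 lower; 2.88%) and 3 in FY against MY (Vamp7 higher, Syt11 and Snap91 lower; 2.78%). Syt11, on ILMN_3063644, was the only member that this test called at all 3 ages.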

How the data were processed

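Hippocampal RNA of 24 mice was measured on 24 arrays, in 6 groups of 4. The authors background subtracted and average normalized the signal intensities in GenomeStudio (2011.1 in the submitters' processing notes), and these deposited intensities, on a linear scale with an array mean of 206.642, were used. Of them, 22.4% lie below 0. A second deposited table was not used: its 48 columns are named by chip and position and match no sample, so chip could not be tested as a batch. The number of arrays limits the precision.

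Intensities were floored at 16, taken to log2, and a probe was kept if every mouse of some group was above 16. Groups were compared with limma 3.58.1 in R 4.3.3, with 1 model over the 6 groups, an intensity trend and Benjamini-Hochberg adjustment over all 11901 kept probes. Probes were named if they belonged to the core machinery, were called, had 1 of the 3 lowest p-values in a comparison, lay at the extremes of level or spread, or disagreed within a gene. Members, gene lists and markers were chosen with earlier results of these data known. The sex comparison averaged over ages, and the settings that leave out arrays or add marker levels, were chosen after seeing the data. Symbols came from the platform annotation, and all 84 genes matched RefSeq without a change. Sv2c and Unc13a were not analysed here. Scripts were tested on simulated data.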

Additional observations from a re-analysis of the deposited data

Results flagged for a closer look

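Among 132 groups of 4 mice (22 probes in 6 groups), 9 held a mouse whose gap to the nearest other was too large a share of the group's range by Dixon's criterion, on the log2 scale. Chance flags about 1 in 20 such groups. Syn1 gave 4 of them, on ILMN_1235133 at 5257 in FY3, 5407 in FO3 and 6105 in MO1, and on ILMN_2762083 at 1042 in MO1. FY3 was also low for Cplx1, at 5099 against 6109 to 6326 in the other FY mice, and for Sytl2, at 400 against 493 to 508.

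Syt1 was low in MY1, at 3452 against 3784 to 3850. Syt11 was high in MA2 on ILMN_3063644, at 244 against 201 to 207, and low in MO2 on ILMN_3141334, at 82.3 against 109 to 113. No difference between the sexes in an age change was called by limma among the members.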

How the results depend on the processing

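The alternatives were floors of 8 and 32, log2 of the intensity plus 32, no filter on dim probes, a filter at 64, quantile normalization, median centring, no trend, array weights, only the compared groups in the model, 1 probe per gene, leaving out each mouse, and the methods' test. Added after seeing the data were leaving out FY3, FO3 and MO1 or MO1 and MO3, and adding the choroid plexus or neocortex level as a covariate. Of 2606 recomputed fold changes of named probes, 128 took the opposite sign, none of them called and all 0.18 or less in size before, and no called one did. Under limma the count of called members stayed at 0 in all settings for the 10 comparisons in which it was 0.

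In FO against MO the count of 1 became 0 with a floor of 8 (limma adjusted p of Syt11 = 0.0528), with log2 of the intensity plus 32 (0.0533), without a filter (0.111), with a filter at 64 (0.0501), with array weights (0.0853), with only the compared groups (0.606), with 1 probe per gene, without MO1 and MO3 (0.362), and with the choroid plexus (0.0614) or neocortex covariate (0.0827). The fold change stayed between -0.64 and -0.46, and leaving out 1 mouse gave 0 to 1 called members. Averaged over ages, the count of 1 became 0 with 1 probe per gene, and was 1 throughout when 1 mouse was left out. The methods' test gave 1, 2 and 3 members in FO against FY, FO against FA and FA against FY, and 3 in each comparison of the sexes at 1 age. The causes were not tested, except that with 1 probe per gene another Syt11 probe is used.

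The replicate numbers name mice of different groups and do not pair them: over 60 same-numbered pairs the correlation of deviations ran from -0.447 to 0.555, and 6 of 24 arrays correlated best with their own number. With the replicate number as a block, 0 members were called in the comparisons with 0, and 1 in FO against MO and in the comparison averaged over ages.

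The limit of these data is 4 arrays per group and, for probes near the floor of 16 such as Syt17, Rab34 and Rab3il1, signal over background.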
